A study of Homo sapiens with 6 samples.

Results

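The 40 genes described here are those of the cytosolic chaperone and heat shock system, chosen by name from the 38637 genes of the deposited expression table. They are heat shock factor HSF1, 5 HSP70 and HSP110 genes, the 2 cytosolic HSP90 genes, the small heat shock protein HSPB1, 6 J-proteins, 5 HSP70 co-chaperones, 5 HSP90 co-chaperones, 7 subunits of the chaperonin CCT, 5 subunits of prefoldin and 3 mitochondrial chaperones. The last 3, HSPA9, HSPD1 and HSPE1, work in the mitochondrial matrix and not in the cytosol. The rule is a list of names and uses no measured value, but the list was drawn up with earlier results of these data known.

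Transcripts were measured by PolyA-Seq in HCCLM3-SR, a hepatocellular carcinoma cell line made resistant to the kinase inhibitor sorafenib by long exposure to rising doses. All 6 libraries came from cells under 5 µM sorafenib. Of these, 3 were transfected for 3 days with an siRNA against cDCBLD2, a circular RNA made from the DCBLD2 gene (knockdown), and 3 with a control siRNA (control). The labels number the libraries of each group from 1 to 3 and do not say that they were separate cultures, so p-values measure the spread between these libraries, which may be technical. The labels do not say whether the resistant line is 1 clone, and resistant cells without sorafenib and sensitive cells were not part of the comparison.

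Values are TPM, a level per length that sums to 1000000 in each library. The depth was not estimated here, so no counting intervals are given. Values per gene give no separate measure of the targeted circular RNA, so its knockdown cannot be read from them. DCBLD2 itself stood at 58.1, 25.9 and 31.6 TPM in the knockdown libraries and at 71.5, 48.5 and 50.7 TPM in the control libraries, and the groups overlapped. Its log2 difference was -0.61 ± 0.31 (SE), with an adjusted p of 0.253 without and 0.0139 when replicate number was a block (limma). After the GC-content offset described below it was -0.29, with an adjusted p of 0.464 without and 0.0481 with the block (limma). After cDCBLD2 knockdown in its resistant lines, the paper saw no obvious and consistent shift of DCBLD2 mRNA or protein. The keratins of epithelial cells were abundant, with KRT8 at 2999 to 4413 TPM and KRT18 at 1800.0 to 2555 TPM. The other epithelial liver cancer markers were low, with EPCAM at no more than 0.323 TPM, GPC3 at no more than 0.135 TPM and AFP at 0.926 to 2.08 TPM. Markers of mature hepatocytes reached 3.00 TPM at most, and among them TTR was at 1.30 to 1.64 TPM in the knockdown and 0.202 to 0.241 TPM in the control. Of the 5 fibroblast markers LUM stood at 26.7 to 59.1 TPM and COL1A1 at 3.61 to 11.2 TPM in the knockdown and 1.13 to 3.35 TPM in the control, both highest in replicate 1 of each group. DCN and PDGFRB reached no more than 0.314 TPM, and COL1A2 was listed at 0 in 5 of the 6 libraries. Leukocyte markers reached no more than 1.64 TPM, with CD3E listed at 0. Their part in the results was not tested. In both groups the library numbered 1 differed from the other replicates, and same-numbered libraries deviated from their group means together. Fits are therefore given without and with the replicate number as a block.

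Chaperones bind proteins that are not yet folded or have lost their fold. HSP70 holds and releases short hydrophobic stretches in a cycle driven by ATP, in which J-proteins deliver the client and nucleotide exchange factors such as HSP110 and the BAG proteins reset the cycle. HSP90 acts later on clients that include many protein kinases, and CCT, with prefoldin as its delivery factor, folds actin and tubulin. When unfolded proteins accumulate, HSF1 binds heat shock elements, inverted repeats of the letters GAA, in the promoters of many of these genes. Many cancer cells hold high levels of HSP90 and of HSP70.

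The heat shock elements of the genes themselves are shown first, since they are the sequences through which HSF1 acts and they are used again at the end. The motif searched was 3 alternating GAA units, GAANNTTCNNGAA, and its reverse complement TTCNNGAANNTTC, so that both strands were covered. Neighbouring matches can overlap. Promoters were RefSeq windows on GRCh38.p14, from 250 bases before to 50 bases after each start. Of the 40 genes, 35 had such a window, and HSF1, ST13, STUB1, FKBP4 and PFDN2 had none. A match stood in 7 of the 35 (20.0%), against 172 of all 35116 promoters (0.490%) and 166 of all 27305 genes (0.608%). For each gene the match nearest a start was printed. HSPA8 and HSP90AB1 held 2 matches each and CHORDC1 held 3, not all of them within the 30 bases printed. The 7 windows follow in the direction of transcription, each of 30 bases, with the matching letters in capitals.
HSPA8, chr11:123062170-123062199, minus strand: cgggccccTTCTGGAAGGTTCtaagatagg
HSP90AA1, chr14:102087111-102087140, minus strand: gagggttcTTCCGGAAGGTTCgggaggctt
HSP90AB1, chr6:44247823-44247852, plus strand: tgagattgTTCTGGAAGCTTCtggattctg
HSPD1, chr2:197500059-197500088, minus strand: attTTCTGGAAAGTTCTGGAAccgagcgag
DNAJA1, chr9:33025268-33025297, plus strand: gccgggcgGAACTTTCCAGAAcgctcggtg
DNAJB6, chr7:157336865-157336894, plus strand: agagccgaGAACCTTCGCGAAggtggggcg
CHORDC1, chr11:90223078-90223107, minus strand: aaaTTCGCGAAGGTTCCTGAAacgcaacgg
In HSPD1 and CHORDC1 the capitals span overlapping matches on both strands. No match in the other 28 windows says only that these letters are not in them. Among 75 other chaperone genes with a window, HSPA6 and SERPINH1 held a match.

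All 40 transcripts were detected in every library. Their levels ran from 5.84 TPM for DNAJB4, a J-protein, in knockdown replicate 3 to 2875 TPM for HSPB1 in knockdown replicate 1. The 3 most abundant were HSPB1, the constitutive HSP70 gene HSPA8 and the constitutive HSP90 gene HSP90AB1, with means over the 6 libraries of 2579, 1565 and 1273 TPM. The 40 together made up 16110, 12148 and 11648 TPM in the knockdown libraries and 17374, 13383 and 13118 TPM in the control libraries. In both groups replicate 1 was the highest, and the groups overlapped. The means were 13302 ± 2445 and 14625 ± 2384 TPM (SD, n = 3 each; two-sided exact permutation p = 0.5, where 3 against 3 libraries allow no p under 0.1).

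**Figure D1:**
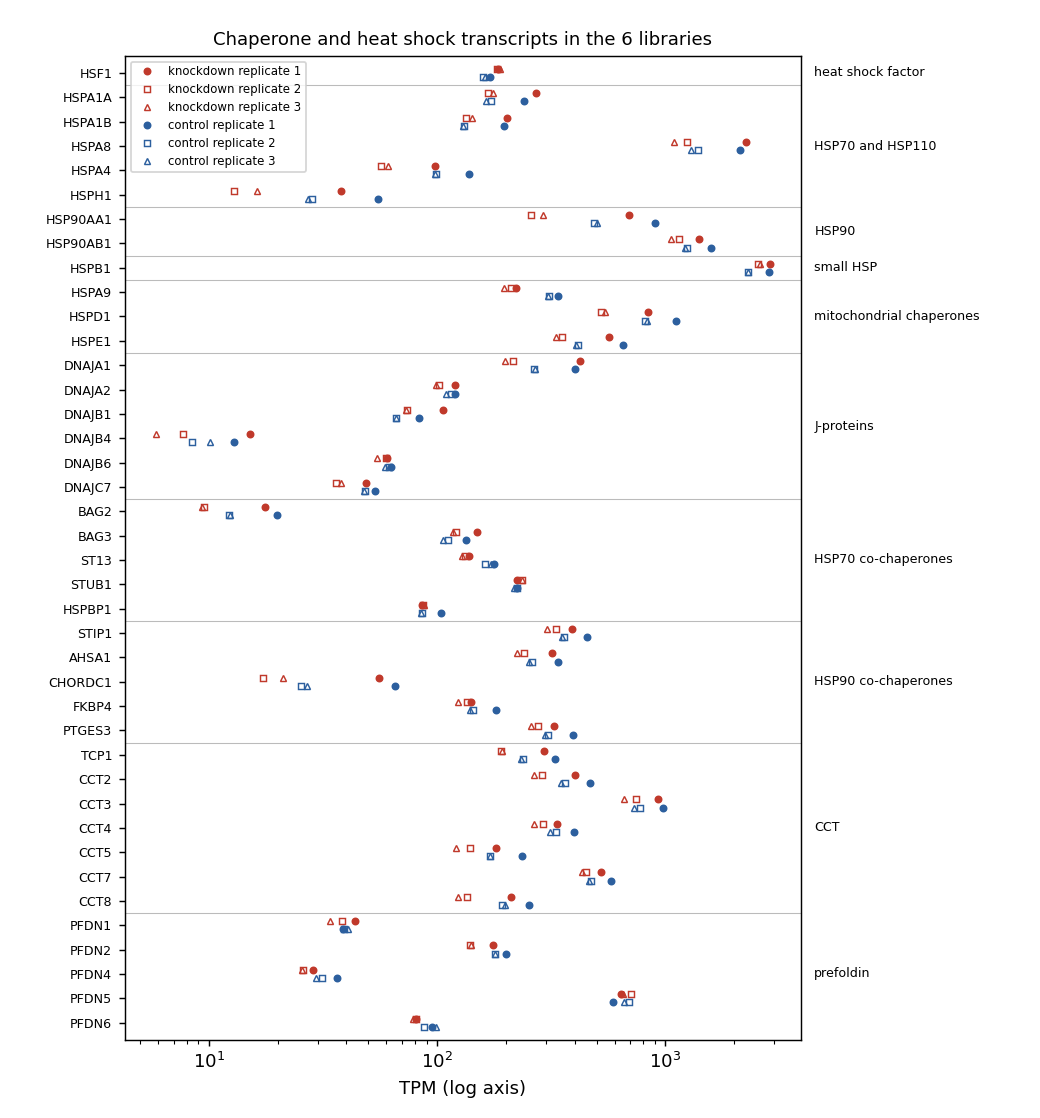
TPM on a log axis for each of the 40 genes in the 3 knockdown and 3 control libraries, grouped by role; filled symbols are replicate 1 and open symbols replicates 2 and 3. In 34 of the 40 genes the filled symbol lies to the right of the open ones in both groups, and in HSPA9, ST13, PFDN2, PFDN4 and PFDN6 all 3 knockdown symbols lie to the left of all 3 control symbols.

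The main question was which of these transcripts changed when cDCBLD2 was knocked down. Mean levels, on log2(TPM + 1), were lower in the knockdown for 32 of the 40 genes and higher for 8. Of all 13980 genes tested, 8718 were lower and 5262 higher. The median log2 difference was -0.21 for the 40 and -0.08 for all genes tested. Without the block, HSPA9 was the only one of the 40 past an adjusted p of 0.05 (limma), and it fell. This call was lost with no filter on low values and when any library other than knockdown replicate 1 was left out. That is 1 of 40 lower and 0 higher, where 0.629% of all genes tested were called lower and 0.250% higher. At an unadjusted p under 0.05, 7 were lower and 1 higher, a share not above the 19.4% and 6.78% of all genes tested. In bulk RNA a change in the makeup of the cells and a change in RNA per cell cannot be told apart.

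With the replicate block, 21 of the 40 were lower (52.5%) and 3 higher (7.50%), and 16 did not pass (limma). In the same fit 25.0% of all genes tested were called lower and 9.94% higher. All genes tested were not matched to the 40 by level, here or in the other comparisons with them. The 3 that rose were HSF1, DNAJB1 and BAG3. The 21 that fell had adjusted p from 0.00436 to 0.0361 with the block. All 3 knockdown libraries lay below all 3 control libraries for 5 genes, HSPA9, ST13, PFDN2, PFDN4 and PFDN6, and above them for 1, HSF1, against 22.3% and 9.58% of all genes tested. The share of the 40 without overlap, 12.5% below and 2.50% above, was thus under that of all genes.

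A trend of the fold change with GC content ran through all transcripts. Across the 12962 tested genes with a GC content the log2 difference and the GC content of the longest transcript had a Pearson r of 0.563 and a Spearman rho of 0.641, and across the 40 they had 0.633 and 0.696. These are descriptions across genes, which share the 6 libraries and are not independent replicates. The median GC content was 46.9% for the 40 and 49.1% for all genes tested. Where each library's own GC trend was replaced by the mean trend, the median log2 difference of the 40 was -0.06, against -0.01 for all genes. Mean levels were then lower in the knockdown for 26 of the 40 and for 6591 of the 12962 genes. With that offset and the block, 12 of the 40 were lower and 3 higher, beside 13.1% and 11.9% of all genes. The offset turned the sign of the log2 difference in 14 of the 40. Of these, 5 are among the 21 that fell with the block: BAG2 went from -0.29 to 0.14, CHORDC1 from -0.36 to 0.11, PTGES3 from -0.21 to 0.08, TCP1 from -0.25 to 0.005 and PFDN4 from -0.27 to 0.20, and none of them was called in the blocked fit with the offset (limma). The other 9 did not pass with the block: HSPA1A, HSPA1B, HSPA8, HSPB1, DNAJA1, DNAJA2, DNAJB4, STUB1 and PFDN1. The part of GC content in the fold changes was not tested further.

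**Figure D2:**
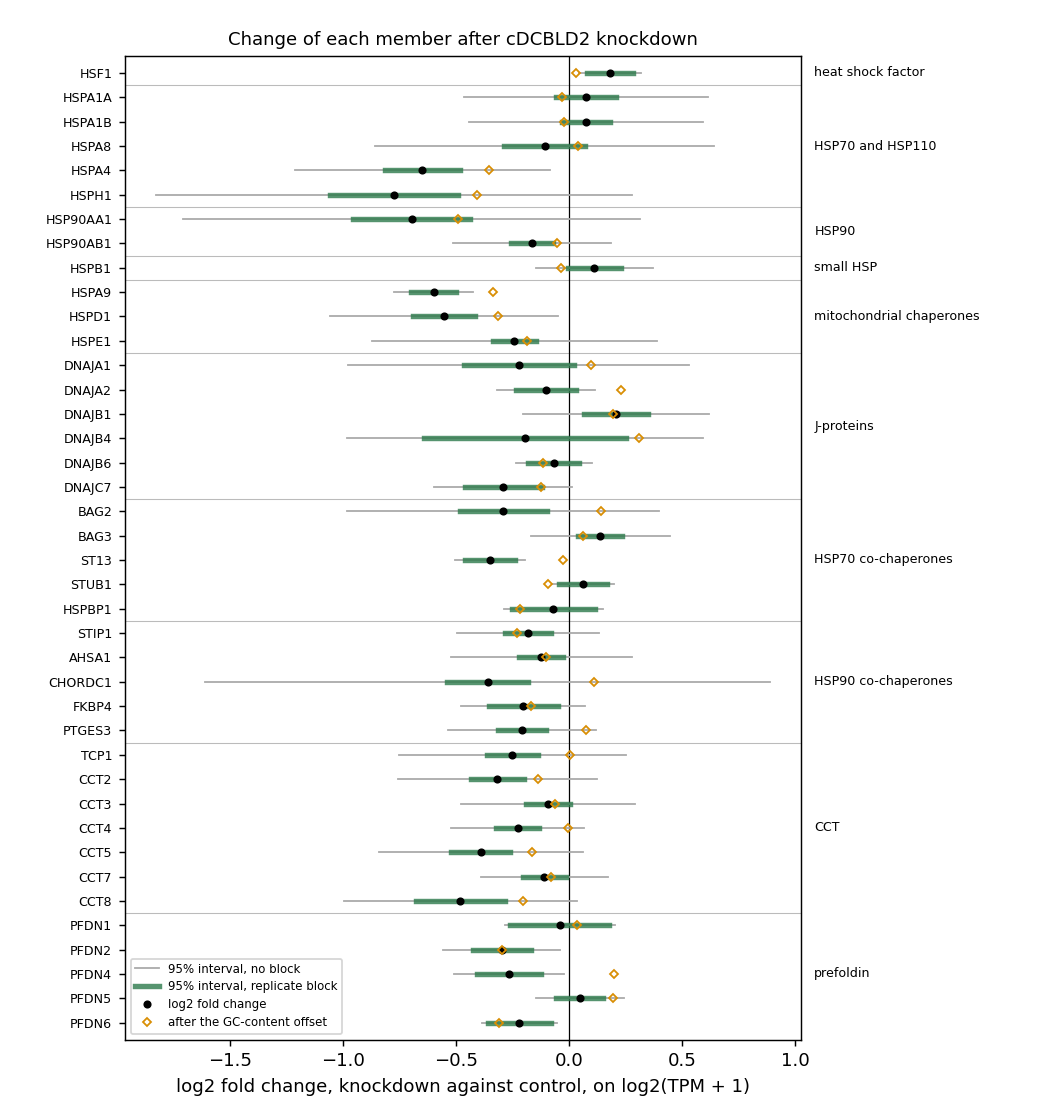
Log2 difference of knockdown against control on log2(TPM + 1) for each gene (black dots), with its 95% interval without the block (grey) and with the replicate block (green), and the value after the GC-content offset (open diamonds). The grey intervals leave out 0 for 8 genes, 7 of them lower, the green ones are narrower in most genes, and most diamonds lie closer to 0 than the dots, such as ST13 at -0.35 and -0.02.

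HSF1, the factor that turns on the heat shock genes, had 185, 183 and 188 TPM in the knockdown libraries and 169.6, 158 and 162 TPM in the control libraries. Every knockdown library was above every control library. The log2 difference was 0.18 ± 0.06 (SE), with an adjusted p of 0.122 without and 0.0229 with the block (limma). After the GC offset the difference was 0.03 and the call was lost, with an adjusted p of 0.538 in the blocked fit (limma). HSF1 transcripts are among the most GC-rich of the 40, at 64.7%.

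The HSP70 and HSP110 genes divided into members near 0 and members that fell with the block. HSPA1A and HSPA1B, the stress-inducible HSP70 genes, lie side by side on chromosome 6, at chr6:31815464-31817946 and chr6:31827735-31830255 in GENCODE 29. Since they are almost identical and the sharing of reads between them is not stated, their separate values are uncertain. HSPA1A had 269.9, 167 and 175 TPM in the knockdown and 240, 172 and 163 TPM in the control, and HSPA1B had 203, 134 and 143 TPM and 196, 131 and 129.6 TPM. For both genes replicate 1 was the highest library of its group and the groups overlapped. Their log2 differences were 0.07 each, with SE of 0.22 for each, adjusted p of 0.858 and 0.850 without the block and 0.321 and 0.225 with it (limma). The sign was negative after the GC offset, at -0.03 and -0.02. With the block the 95% intervals of the difference were -0.06 to 0.21 for HSPA1A and -0.03 to 0.18 for HSPA1B.

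HSPH1, the HSP110 that acts as a nucleotide exchange factor for HSP70, had the most negative difference of the 40. Its levels were 38.0, 12.9 and 16.2 TPM in the knockdown and 55.0, 28.4 and 27.2 TPM in the control. Knockdown replicate 1 lay above control replicates 2 and 3, so the groups overlapped, but each knockdown library was below the control library of the same number. This was a log2 difference of -0.77 ± 0.44 without the block (adjusted p = 0.307), with an adjusted p of 0.00841 with it (limma). HSPA4, a related exchange factor, was also lower in each pair of the same number, at 97.9, 56.9 and 60.7 TPM against 138, 98.7 and 97.7 TPM. Its groups overlapped only because knockdown replicate 1 lay just above control replicate 3. Its log2 difference of -0.65 ± 0.24 had an adjusted p of 0.151 without and 0.00484 with the block (limma). After the GC offset HSPH1 stood at -0.41 and HSPA4 at -0.35, and both still passed with the block, at adjusted p of 0.0222 and 0.00798 (limma). HSPA8, the main constitutive HSP70, had 2259, 1238 and 1088 TPM against 2121, 1394 and 1288 TPM, and its difference of -0.11, which was 0.04 after the GC offset, did not pass in either fit, with an adjusted p of 0.281 with the block (limma).

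Of the cytosolic HSP90 genes, the inducible one differed more than the constitutive one. HSP90AA1 had 693, 258 and 289.7 TPM in the knockdown and 902, 485 and 504 TPM in the control. The knockdown library was lower in every pair of the same number, and the groups overlapped only through knockdown replicate 1. On the log2 scale the difference was -0.70 ± 0.42, with an adjusted p of 0.337 without and 0.00859 with the block (limma), and -0.49 after the GC offset, where it still passed with the block (adjusted p = 0.0143, limma). HSP90AB1 had 1406, 1142 and 1056 TPM against 1577, 1246 and 1214 TPM. Its log2 difference was -0.16 ± 0.15, with an adjusted p of 0.505 without and 0.0243 with the block, and -0.05, adjusted p = 0.312, in the blocked fit with the offset (limma). The ratio of HSP90AA1 to HSP90AB1 within a library was 0.493, 0.226 and 0.274 in the knockdown and 0.572, 0.389 and 0.415 in the control. This ratio was picked after its values were seen, so it is given with no test, and it was highest in replicate 1 of each group.

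HSPB1, the small heat shock protein that keeps unfolding proteins from clumping, had 2875, 2558 and 2590 TPM in the knockdown and 2845, 2304 and 2304 TPM in the control. The groups overlapped through control replicate 1. A log2 difference of 0.11 ± 0.11 had adjusted p of 0.539 without and 0.119 with the block (limma). It was -0.04 after the GC offset.

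The mitochondrial chaperones HSPA9, HSPD1 and HSPE1 were the role group whose members all fell with the block and kept that call after the GC offset. Mitochondrial genes among the other chaperone genes were mixed. TRAP1, GRPEL1 and GRPEL2 did not pass with the block, at adjusted p of 0.112, 0.199 and 0.117 (limma). In the blocked fit with the offset TRAP1 was lower (-0.18, adjusted p = 0.0367, limma), and GRPEL1 and GRPEL2, at 0.08 and 0.14, were not called. DNAJA3 was lower in both blocked fits, at adjusted p of 0.0326 and 0.0368 (limma). HSPA9, the HSP70 of the mitochondrial matrix, which also pulls imported proteins through the inner membrane, is at chr5:138553756-138575724. It stood at 221, 212 and 197 TPM in the knockdown libraries and at 338, 309 and 307 TPM in the control libraries, with no overlap and little spread within a group (209.6 ± 12 against 318 ± 17.2 TPM, SD, n = 3 each). HSPA9 had a log2 difference of -0.60 ± 0.07, with an adjusted p of 0.0444 without and 0.00436 with the block (limma). The pairs of the same number gave -0.61, -0.54 and -0.64. After the GC offset the difference was -0.33, with adjusted p of 0.0808 without and 0.0106 with the block (limma), so the call without the block was lost. Without the block the adjusted p was 0.0673 with no filter on low values and 0.151 to 0.222 in the 5 fits that left out a library other than knockdown replicate 1, with log2 differences from -0.62 to -0.55 (limma).

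HSPD1, the mitochondrial chaperonin HSP60, had 836, 525 and 546 TPM in the knockdown and 1116, 815 and 834 TPM in the control. Only knockdown replicate 1 reached the control range. HSPD1 had a log2 difference of -0.55 ± 0.21, with adjusted p of 0.162 without, 0.00479 with the block, and 0.00713 in the blocked fit with the offset (limma). HSPE1, its lid HSP10, had 566, 351 and 333 TPM against 652, 415 and 405 TPM. The log2 difference of HSPE1 was -0.24 ± 0.26, with adjusted p of 0.590 without and 0.00935 with the block (limma). The ratio of HSPD1 to HSPE1 was 1.48, 1.5 and 1.64 in the knockdown libraries and 1.71, 1.96 and 2.06 in the control libraries, without overlap; it too was picked after its values were seen and carries no test. The genes are neighbours on opposite strands and overlap in GENCODE 29, and the strand setting of the counting is not stated, so reads of the shared stretch are uncertain. A readthrough transcript, HSPE1-MOB4, had 18.9 to 37.7 TPM.

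Among the 6 J-proteins 1 rose and 1 fell with the block. DNAJB1, the main partner of inducible HSP70 and a classical HSF1 target, had 106, 73.6 and 72.7 TPM in the knockdown and 83.7, 66.2 and 66.1 TPM in the control. Each knockdown library was above the control library of the same number, while the groups overlapped. DNAJB1 had a log2 difference of 0.21 ± 0.17, with adjusted p of 0.473 without and 0.0394 with the block (limma). The GC offset left it at 0.20, where it passed with the block (adjusted p = 0.0460, limma). DNAJC7, a J-protein that binds both HSP70 and HSP90, had 48.8, 35.9 and 37.7 TPM against 53.5, 48.1 and 47.8 TPM. DNAJC7 had a log2 difference of -0.29 ± 0.13, with adjusted p of 0.207 without and 0.0262 with the block, and 0.154 in the blocked fit with the offset (limma). DNAJA1, DNAJA2, DNAJB4 and DNAJB6 passed in neither fit without the offset. After the GC offset their signs were positive in DNAJA1 (0.10), DNAJA2 (0.23) and DNAJB4 (0.31), and with the block DNAJA2 was then called higher.

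Of the HSP70 co-chaperones, BAG3 rose and BAG2 and ST13 fell with the block. BAG3, which links HSP70 to selective autophagy, had 149, 121 and 117 TPM in the knockdown and 134, 111 and 106 TPM in the control, higher in each pair of the same number. BAG3 had a log2 difference of 0.14 ± 0.13, with adjusted p of 0.523 without, 0.0432 with the block, and 0.250 in the blocked fit with the offset (limma). ST13, the HSP70-interacting protein Hip, had 138, 133 and 129 TPM against 177, 161 and 172 TPM, with no overlap. Its log2 difference was -0.35 ± 0.06, with adjusted p of 0.0580 without and 0.00663 with the block (limma), and when only protein-coding genes were tested it passed without the block, at an adjusted p of 0.0471 (limma). After the GC offset it was at -0.02, with an adjusted p of 0.776 with the block (limma). STUB1, the ubiquitin ligase CHIP, had 216 to 236 TPM over the 6 libraries and HSPBP1, an exchange factor, 85.1 to 104 TPM, and neither passed without the offset. HSPBP1 was called lower with the offset and the block.

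All 5 HSP90 co-chaperones had lower means in the knockdown, and STIP1, CHORDC1 and PTGES3 fell with the block. CHORDC1, a zinc-binding co-chaperone that is itself heat-inducible, had 55.4, 17.4 and 21.1 TPM in the knockdown and 65.2, 25.3 and 26.8 TPM in the control. In both groups replicate 1 was more than 2 times the level of either other replicate. CHORDC1 had a log2 difference of -0.36 ± 0.52, with adjusted p of 0.693 without and 0.0170 with the block (limma). It turned to 0.11 after the GC offset. AHSA1, the activator of the HSP90 ATPase, had 318, 241 and 224 TPM against 338, 260.4 and 252 TPM. AHSA1 had a log2 difference of -0.12 ± 0.17, with adjusted p of 0.674 without and 0.0604 with the block (limma). STIP1, the adaptor Hop that joins HSP70 to HSP90, was the 1 of the 5 that was called lower with the block and also with the offset and the block.

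Every one of the 7 CCT subunits had a lower mean in the knockdown, with log2 differences from -0.48 to -0.09. Of these, 5 fell with the block, TCP1, CCT2, CCT4, CCT5 and CCT8, and CCT3 and CCT7 did not pass. CCT8 had 209.8, 135 and 124 TPM in the knockdown and 253, 192 and 197 TPM in the control. Knockdown replicate 1 was within the control range and the other knockdown libraries were below it. The log2 difference was -0.48 ± 0.21, with adjusted p of 0.212 without, 0.0105 with the block, and 0.0439 in the blocked fit with the offset (limma). CCT3, the most abundant subunit transcript, had 932, 746 and 659 TPM against 977, 777 and 731 TPM. Its log2 difference was -0.09 ± 0.16, with adjusted p of 0.746 without and 0.123 with the block (limma). The 7 together summed to 2874, 2239 and 2056 TPM in the knockdown and 3242, 2541 and 2459 TPM in the control (two-sided exact permutation p = 0.4, n = 3 each). With the offset and the block CCT2 and CCT8 were still called lower.

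The prefoldin genes held 3 of the 5 members without overlap below the control. PFDN2 had 176, 139 and 141 TPM in the knockdown and 199.8, 180.0 and 179 TPM in the control. The log2 difference was -0.30 ± 0.11, with adjusted p of 0.150 without and 0.0116 with the block (limma), and the GC offset left it at -0.30. PFDN4 had 25.5 to 28.5 TPM against 29.4 to 36.4 TPM and PFDN6 had 78.1 to 81.2 TPM against 87.6 to 98.5 TPM. Both fell with the block, and PFDN6, not PFDN4, was also called with the offset and the block. PFDN5, the most abundant prefoldin transcript, had 642, 707 and 652 TPM in the knockdown and 591, 689.7 and 657 TPM in the control, a log2 difference of 0.05 ± 0.08 with adjusted p of 0.738 without and 0.407 with the block (limma). With the offset and the block it was called higher, at 0.20 (adjusted p = 0.0150, limma). PFDN1 had 33.9 to 43.5 TPM and passed in neither fit.

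The split by GC content showed the same among the calls. Of the 23 genes under 50% GC, 17 fell and 0 rose with the block, and of the other 17, 4 fell and 3 rose (limma). Over all genes tested 25.0% fell and 9.94% rose in that fit, and shares within these GC classes were not counted. Of the 21 genes lower with the block, 11 were lower with the offset and the block too: HSPA4, HSPH1, HSP90AA1, HSPA9, HSPD1, HSPE1, STIP1, CCT2, CCT8, PFDN2 and PFDN6. Lower with the block alone were HSP90AB1, DNAJC7, BAG2, ST13, CHORDC1, PTGES3, TCP1, CCT4, CCT5 and PFDN4. Of the 3 that rose, DNAJB1 was higher in both fits.

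A further 89 genes of the chaperone and heat shock system, listed by family, were read in the same way, and 73 of them were expressed enough to be tested. None passed without the block (limma), and 16 had an unadjusted p under 0.05, where 26.1% of all genes tested did. With the block 7 were higher (9.59%) and 20 lower (27.4%), close to the 9.94% and 25.0% of all genes tested, and their median log2 difference of -0.09 was close to the -0.08 of all genes. DNAJC13, a J-protein of endosomes, had the most negative difference, at 17.8, 7.04 and 8.29 TPM in the knockdown and 33.1, 22.6 and 27.7 TPM in the control. All knockdown libraries of DNAJC13 were below all control libraries, and its log2 difference of -1.34 ± 0.33 had adjusted p of 0.0835 without and 0.00616 with the block (limma). DNAJC2, a J-protein that sits on the ribosome, was at -0.63, with an adjusted p of 0.0103 with the block (limma). SERPINH1, the heat-inducible collagen chaperone HSP47, rose from 203, 214 and 219 TPM in the control to 268, 264 and 276 TPM in the knockdown, a log2 difference of 0.35 ± 0.06 with adjusted p of 0.0544 without and 0.00586 with the block (limma). CRYAB, a small heat shock protein at 1.83 to 4.01 TPM, and DNAJB2, a J-protein at 32.4 to 57.0 TPM, were the other highest, at 0.49 and 0.55, with adjusted p of 0.0203 and 0.00849 with the block (limma). The groups of SERPINH1, CRYAB and DNAJB2 did not overlap.

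The 7 other CCT and prefoldin genes tested all passed with the block (limma), with 6 lower and PDRG1 higher, beside 25.0% and 9.94% of all genes tested. With the GC offset and the block 3 were lower and 1 higher (limma), beside 13.1% and 11.9% of all genes. CCT6A, the remaining ubiquitous CCT subunit, was lower at -0.46 and VBP1, a prefoldin subunit, at -0.48. After the offset they stood at -0.21 and -0.08, with adjusted p of 0.0224 and 0.314 in the blocked fit (limma). HSPA6, the strictly heat-inducible HSP70, was at no more than 0.490 TPM in any library and was too low to be tested.

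Replicate 1 held the highest level of most of the 40 genes, in both groups alike. In 34 of the 40 (85.0%) replicate 1 was above replicates 2 and 3 in knockdown and control, against 38.9% of all genes tested. The other chaperone genes tested lay between, with 43 of 73 (58.9%). For the 40, the median log2 difference of replicate 1 from the mean of the other replicates was 0.38 in the knockdown and 0.35 in the control. It was 0.20 and 0.16 for the other chaperone genes, and 0.08 and 0.04 for all genes. The exceptions among the 40 were HSF1, STUB1, HSPBP1, PFDN1, PFDN5 and PFDN6.

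Across the 40, the difference of replicate 1 in the knockdown and that in the control had a Pearson r of 0.891 and a Spearman rho of 0.904, beside 0.560 and 0.707 across all genes tested, as descriptions across genes that share the 6 libraries. It was largest for CHORDC1, at 1.48 in the knockdown and 1.29 in the control on the log2 scale. In the order of the knockdown, HSP90AA1 followed with 1.34 and 0.87, HSPH1 with 1.34 and 0.96, DNAJB4 with 1.07 and 0.44, DNAJA1 with 1.03 and 0.59, and HSPA8 with 0.96 and 0.66. What set the first replicates apart is not in the labels.

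The 7 genes with a heat shock element match in the windows printed above had a median replicate 1 difference of 0.96 in the knockdown and 0.59 in the control. The 28 with a window and no match had 0.40 and 0.36, and in the knockdown their values ran from -0.08 to 1.34. DNAJB1, named above as a classical HSF1 target, is among these 28, so the split is by the letters searched and not by HSF1 binding. DNAJB6 and HSP90AB1 show that a match did not go with a large difference in each gene, since values among the 7 started at 0.08. For the knockdown against control comparison the groups were close, with median log2 differences of -0.22 with and -0.20 without a match, and 4 of 7 and 15 of 28 genes lower with the block. These are descriptions of genes that share the libraries, and no test was made.

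**Figure D3:**
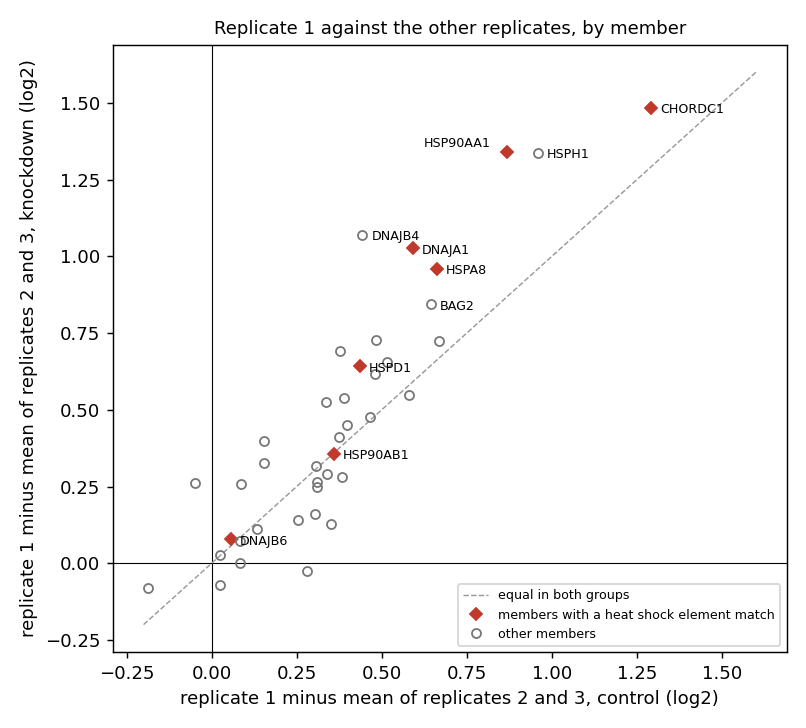
Log2 difference of replicate 1 from the mean of replicates 2 and 3 in the control (x axis) and in the knockdown (y axis) for each of the 40 genes; diamonds mark genes with a heat shock element match, circles those without a match or without a promoter window, and the dashed line equal differences. CHORDC1, HSP90AA1 and HSPH1 lie at the upper right, at 1.34 or more in the knockdown.

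Without replicate 1 of both groups the counts kept their direction. Over the remaining 4 libraries, 19 of the 40 were lower and 2 higher without the block, beside 25.3% and 9.68% of all genes tested, and 24 were lower and 3 higher with it, beside 28.0% and 11.3% (limma). The median log2 difference was -0.21, as with all 6 libraries. Without knockdown replicate 1 alone and without the block, 10 of the 40 were lower and 0 higher, beside 19.8% and 4.64% of all genes tested (limma).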

How the data were processed

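PolyA-Seq libraries of HCCLM3-SR cells were made with the NEBNext Ultra kit from total RNA. Per the labels, the submitters' processing notes name fastp 0.20.1, HISAT2 2.1.0, StringTie 2.0 and the build hg38, and multimapping and strand settings are not given in the sources used here. The deposited values are TPM for each gene, not counts, and keep no depth.

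TPM were used as log2(TPM + 1). Genes were tested where TPM averaged 1 or more over the 6 libraries, 13980 in all. The test was limma-trend (limma 3.58.1, R 4.3.3). P-values were adjusted by Benjamini-Hochberg over all tested genes, and genes were called at an adjusted p under 0.05. Intervals are 95% intervals of limma, and SE are those of the fit without the block unless named. For single sums the test was an exact permutation test, two-sided. The script was tested on simulated data. The labels give the replicate numbers. Deviations from group means over all genes correlated at 0.560, 0.343 and 0.362 for same-numbered libraries and at -0.45 to 0.25 for others. The numbers were therefore taken to pair the libraries. The labels do not state this pairing, and it was inferred from the same values that the blocked fits use. Deviations cancel within a group, so positive values for same numbers push those for different numbers down.

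GC content was that of the longest GENCODE 29 transcript, matched by symbol for 25655 genes of the table and by RefSeq synonym for 564, with 12418 not matched, and it covered 92.7% of the genes tested. Each library's loess trend (span 0.5) was replaced by the mean trend for the GC offset. Coordinates are from GENCODE 29 on GRCh38, and promoter sequences from RefSeq.

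The 40 genes and all lists were chosen with earlier results of these data known. Genes with full values are those past the adjusted p without the block, the highest and lowest log2 difference of each role group, HSF1, HSPA1A and HSPA1B, the 3 highest and 3 lowest of the other chaperone genes, of which 1 is not reported here, and DCBLD2. Values of HSPA4, HSPA8, HSPD1, the TPM ratios and the other genes named beyond these were added after their values were seen. In all, 15 alternatives were run.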

Additional observations from a re-analysis of the deposited data

How the results depend on the processing

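Of the 40 genes, 1 was lower and 0 were higher without the block. The lower count was 0 with no filter on low values, 0 with the GC-content offset, 2 with protein-coding genes only, 21 with the replicate block and 12 with the offset and the block, and the higher count was 3 with the replicate block and 3 with the offset and the block. Of the other chaperone genes, 0 were called in either direction without the block, and 7 were higher and 20 lower with the replicate block, 11 higher and 9 lower with the offset and the block, and 2 higher with protein-coding genes only. With 1 library left out at a time, 0 to 10 of the 40 were lower and 0 higher, and 0 to 3 of the other genes were higher and 0 to 15 lower. The 10, 3 and 15 came without knockdown replicate 1, where 4.64% of all genes were higher and 19.8% lower, and the other 5 omissions gave 0 calls over all genes (limma), with 2161 to 2803 genes at an unadjusted p under 0.05. Without replicate 1 of both groups, 2 of the 40 were higher and 19 lower, and 3 and 24 with the block, while 7 of the other genes were higher and 20 lower, and 7 and 21 with the block. A pseudocount of 0.1 and upper-quartile scaling moved none of these counts. The median log2 difference of the 40, -0.21, was negative under all 15 alternatives, from -0.31 to -0.06. That of all genes was negative under all of them too, from -0.094 to -0.0055. Without control replicate 1 the median of the 40, -0.064, was less negative than that of all genes, -0.086. Without knockdown replicate 3 the medians were close, at -0.10 and -0.08.

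Signs turned for single genes. The GC offset turned 14 of the 40, named in the report. Of those given with full values, with or without the block, HSPA1A was at -0.033, HSPA1B at -0.022, HSPB1 at -0.035 and CHORDC1 at 0.11. With 1 library left out, HSPA1A ran from -0.14 (without knockdown replicate 1) to 0.25 and HSPA1B from -0.11 (the same) to 0.27, and both were also negative without control replicate 3, at -0.03 each, HSPA1B at -0.02 without control replicate 2. Without control replicate 1, AHSA1 was at 0.0099 (lowest -0.27), CHORDC1 at 0.071 (lowest -0.85), CCT3 at 0.033 (lowest -0.23) and PFDN5 at -0.014 (highest 0.097), and CCT3 was at 0.02 without knockdown replicate 3. The causes were not tested. The replicate block changed no call other than those given. TPM keep no depth, so the limits set by read number cannot be stated, and the 3 libraries a group limit every estimate.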
